A study of Mus musculus with 6 samples.

Results

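Broad accessible intervals, stretches of open chromatin of at least 2500 bp, were described in mouse neural progenitors and compared between cells carrying an Nr6a1 virus and cells carrying a control virus. They are the intervals on chromosomes 1 to 19 of the authors' consensus set whose length, end included, was 2500 bp or more, and they numbered 1105 of 52223 intervals in all. Length alone chose them, with no use of the group values, although the intervals themselves were drawn on these libraries. They ranged from 2500 to 6178 bp with a median of 2875 bp, and made up 2.12% of the intervals and 5.81% of the summed interval length. All 1105 passed the filter on low counts. Just inside the limit were intervals of 2500 bp at the starts of Dgkh, Zfp467 and Pnpla6, and just outside it were intervals of 2499 bp near Gng2 and near Rapgef1 and one of 2498 bp at a cluster of histone genes, with 52.2, 89.7, 97.0, 55.6, 70.9 and 74.0 CPM in the control group in that order.

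The assay was ATAC-seq, in which the Tn5 transposase cuts accessible DNA and inserts sequencing adapters. All 6 libraries came from mouse embryonic stem cells differentiated in N2B27 medium that first held bFGF. The medium held 5 µM CHIR99021, which inhibits GSK3 and so activates Wnt signalling, on day 2, 100 nM retinoic acid (RA) with 10 nM Smoothened Agonist (SAG) from day 3, and 10 nM SAG from day 5. On day 5 the 3 samples of the mScarlet group received a lentivirus carrying mScarlet3, a red fluorescent protein, and the 3 samples of the Nr6a1OE group received a lentivirus carrying Nr6a1-2A-mScarlet3. Cells with mScarlet3 fluorescence were sorted on day 9, with 50000 cells in each library. Both groups therefore carried a lentivirus and mScarlet3. The promoter of the vectors, the name of the stem cell line and whether the samples of a group were separate cultures are not given in the labels, so the p-values reflect nothing beyond the spread among these libraries, which could be technical. In bulk samples, more accessible cells and more access per cell cannot be told apart.

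Short ATAC-seq intervals typically mark enhancers or single promoters, where nucleosomes are displaced. Wider open stretches are known at promoters rich in the dinucleotide CG (CpG), which resist DNA methylation, and around genes for developmental regulators, whose CpG islands are long and are bound by Polycomb or Trithorax complexes according to the cell's state. Nr6a1, or germ cell nuclear factor, belongs to the orphan nuclear receptors. It binds direct repeats of the AGGTCA half-site, represses pluripotency genes in differentiating stem cells and takes part in setting the trunk region of the embryo.

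The start sites below show the range of promoters inside broad intervals. Tle3, Sp5 and Otx2 hold 3 of the longest, Pax7 and Hmga1 hold intervals that opened, and Cpt1a holds one that closed. Each line gives the 250 bases before the start, 5′ to 3′ on the gene's strand, from RefSeq GRCm38.p6, with CpG in capitals.
Tle3: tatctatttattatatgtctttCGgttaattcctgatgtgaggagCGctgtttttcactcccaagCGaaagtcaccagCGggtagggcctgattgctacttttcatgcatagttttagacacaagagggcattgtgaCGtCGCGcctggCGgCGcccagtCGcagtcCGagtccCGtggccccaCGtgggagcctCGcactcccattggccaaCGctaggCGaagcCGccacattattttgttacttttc
Sp5: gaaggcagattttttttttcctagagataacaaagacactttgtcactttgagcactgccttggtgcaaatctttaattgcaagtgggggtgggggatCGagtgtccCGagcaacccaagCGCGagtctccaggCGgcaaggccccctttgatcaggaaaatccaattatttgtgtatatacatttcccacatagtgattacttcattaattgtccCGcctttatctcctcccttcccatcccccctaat
Otx2: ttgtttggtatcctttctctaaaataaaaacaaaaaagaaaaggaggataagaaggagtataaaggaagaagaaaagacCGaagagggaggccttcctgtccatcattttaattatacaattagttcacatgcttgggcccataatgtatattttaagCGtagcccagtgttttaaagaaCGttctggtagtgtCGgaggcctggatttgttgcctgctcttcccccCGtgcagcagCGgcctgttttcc
Pax7: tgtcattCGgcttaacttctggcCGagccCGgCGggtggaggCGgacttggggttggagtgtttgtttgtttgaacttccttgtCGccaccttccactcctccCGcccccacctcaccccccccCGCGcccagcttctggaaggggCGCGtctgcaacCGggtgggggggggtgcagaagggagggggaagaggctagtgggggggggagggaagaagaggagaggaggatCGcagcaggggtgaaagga
Hmga1: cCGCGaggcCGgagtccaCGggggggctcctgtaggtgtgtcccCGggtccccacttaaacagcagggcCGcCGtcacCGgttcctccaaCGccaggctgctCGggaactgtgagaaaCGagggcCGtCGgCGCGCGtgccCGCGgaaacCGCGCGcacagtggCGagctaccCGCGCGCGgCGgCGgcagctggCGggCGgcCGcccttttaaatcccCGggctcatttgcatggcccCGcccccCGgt
Cpt1a: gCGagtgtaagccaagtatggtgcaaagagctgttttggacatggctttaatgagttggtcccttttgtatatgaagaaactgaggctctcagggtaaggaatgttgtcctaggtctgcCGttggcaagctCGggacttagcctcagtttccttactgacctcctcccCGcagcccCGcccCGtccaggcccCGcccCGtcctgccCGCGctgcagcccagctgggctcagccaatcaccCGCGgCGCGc
These stretches run on the plus strand at chr9:61372116-61372365 (Tle3), chr2:70474673-70474922 (Sp5), chr17:27556324-27556573 (Hmga1) and chr19:3323051-3323300 (Cpt1a), and on the minus strand at chr14:48667645-48667894 (Otx2) and chr4:139832969-139833218 (Pax7). The Hmga1 stretch holds 34 CpG and that of Tle3 17, while those of Sp5 and Otx2 hold 6 each. Broad intervals thus include start sites on both sides of the usual definition of a CpG-rich promoter.

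Broad intervals lay at gene starts and gene ends far more often than the rest. Of the 1105, 489 (44.3%) contained the start site of a protein-coding gene in the promoter table used here. A further 211 (19.1%) held no such start but reached an outer boundary, start or finish, of a coding gene. Such a gene can have a listed start in another interval, as Gse1 does. This class includes all such cases on chromosome 18, which has no start sites in that table. Another 209 (18.9%) lay inside a gene and 196 (17.7%) between genes. The start or boundary share was 63.3% (exact binomial 95% interval 60.4 to 66.2%, counting error only) against 24.8% of the 50005 narrower autosomal intervals. A longer stretch reaches more sequence, and the share rose in every length class, from 1.99% under 500 bp to 51.9% at 2000 to 2499 bp and 85.1% at 3500 bp and over. Exons, introns and untranslated regions were not told apart, since the gene table gives outer boundaries only.

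**Figure D1:**
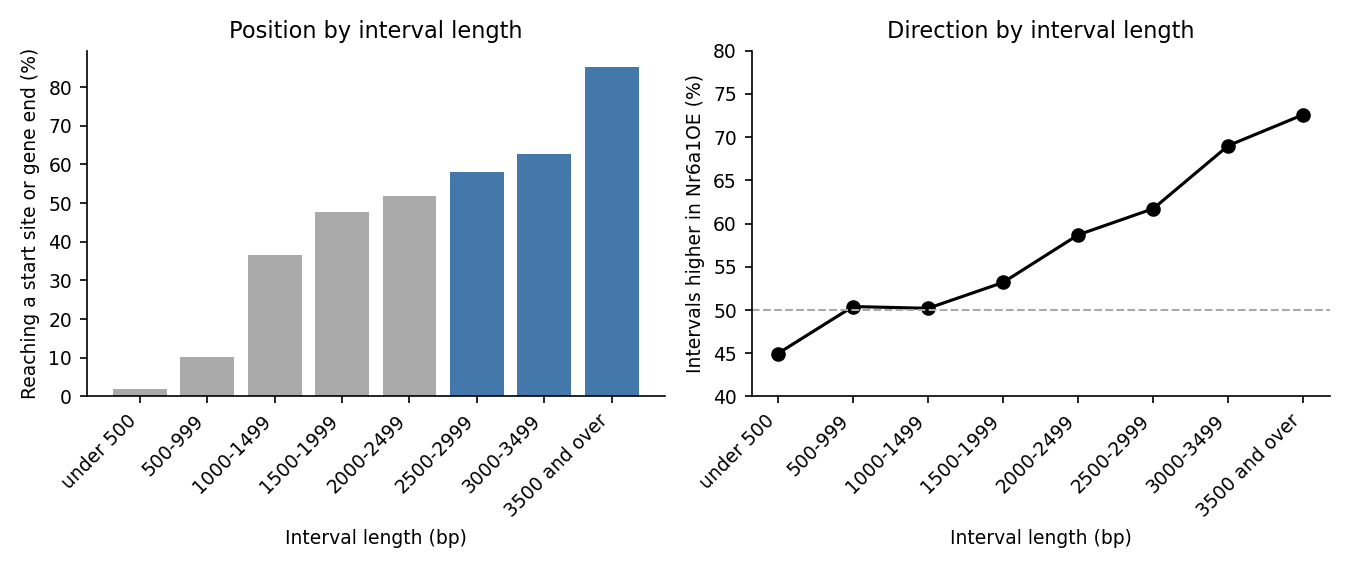
Left, the percentage of autosomal intervals that contain a coding start site or gene boundary (y axis) in 8 classes of interval length in bp (x axis), with the broad classes in blue. Right, the percentage of tested intervals with a positive log2 fold change of Nr6a1OE over mScarlet, which lies at 44.97% in the shortest class and 72.6% in the longest. The dashed line marks an equal split.

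Accessibility per length was also higher. The median over broad intervals was 20.8 CPM per kb (CPM, the fragments of an interval scaled to a common library size), against 7.81 over all 51637 tested intervals. This density rose with length among autosomal intervals from 500 bp up, below 2500 bp as well as above. The class medians were 6.02 CPM per kb from 500 to below 1000 bp and 10.7 from 1000 to below 1500 bp. They were 15.6 from 1500 to below 2000 bp, 16.7 from 2000 to below 2500 bp and 19.1 from 2500 to below 3000 bp. At 3500 bp and over the median was 24.9. Within the broad set the density spanned 1.68 CPM per kb, at an interval between genes near Rbm26, to 88.4, at Irx5, a homeobox gene of neural tube patterning. The other 4 densest intervals held Mnt, a bHLH repressor of the Myc network (79.8 CPM per kb), Jund, a subunit of AP-1 (78.4), Ing2, a reader of histone methylation (77.1), and the predicted gene LOC108167694 (75.02), whose sequence may have other copies, so that its density is uncertain. None of these 5 passed the test between groups. By position, the median was 27.7 CPM per kb at start sites, 25.1 at gene boundaries, 11.97 inside genes and 10.0 between genes. The set therefore combines dense promoter stretches with sparse stretches away from promoters.

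CpG-rich promoters were common in broad intervals, but no more so than in other accessible intervals. A window from 250 bases before a start to 50 after it was called CpG-rich with at least 50% GC and an observed over expected CpG ratio of at least 0.6. Of the 647 coding windows whose start lay in a broad interval, 471 (72.8%) met this, against 72.9% of 11852 in narrower intervals, 2.99% of 7585 in no interval and 46.5% of all coding windows. The median GC content was 64.0% in broad and 62.3% in narrower intervals, and the median CpG ratio 0.77 and 0.78. Among broad intervals with a start site, 382 held at least 1 CpG-rich start and 107 held none. The latter included Sp5, a zinc finger target of Wnt signalling (CpG ratio 0.40), Otx2, a homeobox gene of the forebrain and midbrain (0.46), Pax7, a paired-box gene of the dorsal neural tube (0.58), and Csrnp1, an immediate early gene induced by Axin (0.27).

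Short motifs were counted in the same windows on both strands, as letters only. GGGCGG, the core bound by Sp factors, was in 70.6% of windows in broad intervals, 68.3% in narrower ones and 47.0% of all coding windows. CCAAT was in 34.5%, 37.7% and 38.1%, TATAAA in 8.19%, 5.86% and 12.7%, and CACGTG, the E-box, in 7.88%, 10.2% and 7.89%. AGGTCA, the nuclear receptor half-site, was in 7.42%, 11.1% and 14.7%, and the longer TCAAGGTCA, which contains it, in 0%, 0.22% and 0.34%. Windows in broad and narrower intervals were thus close in GGGCGG and CCAAT, and AGGTCA and CACGTG were less frequent and TATAAA more frequent in the broad set than in the narrower one. No test was run on these shares.

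Among pooled gene lists, the developmental transcription factors had broad intervals most often. Of 20661 autosomal coding genes, 990 (4.79%) held a broad interval or lay within 1 kb of one, which is 6.44% of the 15361 genes that had any interval on these terms. Across the 8 lists of transcription factor families the share was 91 of 227 genes (40.1%), across 5 signalling pathways 48 of 165 (29.1%), and across the lists of chromatin, cell cycle and RNA-binding genes 26 of 165 (15.8%). Genes in none of the lists stood at 4.02%. The gap between transcription factor genes and all coding genes was also present within classes of gene size. The transcription factor genes had a median span of 6.49 kb against 17.5 kb over all coding genes, and among genes spanning under 20 kb the shares were 40.3% of 159 and 3.91% of 11086. From 20 kb up they were 39.7% of 68 and 5.81% of 9575. The other lists were not split by size. The lists were written from general knowledge with earlier results of these data known, so these shares are descriptions.

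**Figure D2:**
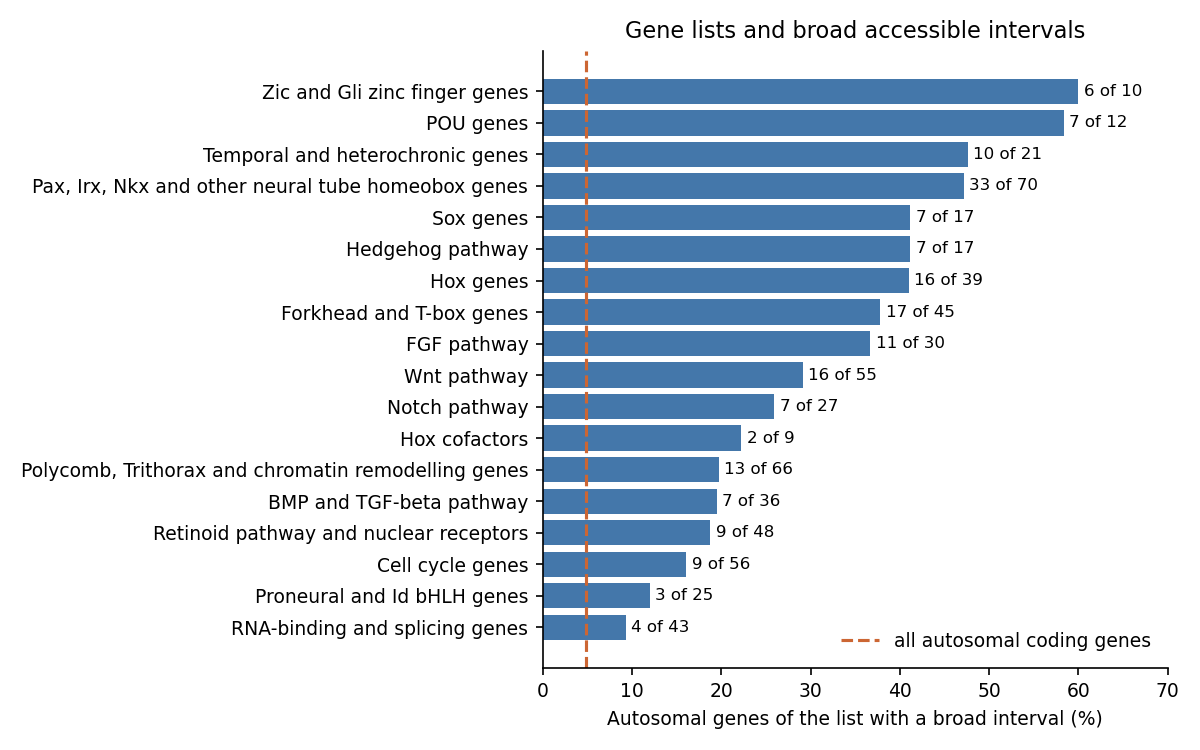
Percentage of the autosomal genes of each list (x axis) that hold or lie within 1 kb of a broad interval, with the number of genes beside each bar. The dashed line is the share over all autosomal coding genes, 4.79%. The Zic and Gli list has the highest bar, at 60%, and RNA-binding and splicing genes the lowest, at 9.30%.

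Among the transcription factor lists, the Zic and Gli zinc finger genes had 6 of 10 (Gli1, Gli3, Glis2, Glis3, Zic2 and Zic5). Some genes of that list are effectors or modulators of Hedgehog signalling. The POU genes had 7 of 12. The homeobox genes that pattern the neural tube had 33 of 70 (47.1%), the Sox genes 7 of 17 (41.2%), the Hox genes 16 of 39 (41.0%) and the forkhead and T-box genes 17 of 45 (37.8%). Proneural and Id bHLH genes, which drive and restrain neuronal differentiation, had 3 of 25 (12%), Neurog2 and Olig2 among them. Temporal and heterochronic genes, which mark the age of progenitors, had 10 of 21 (47.6%), including Lin28a, Hmga1, Hmga2, Igf2bp1, Trim71, Nfib and Nfix.
Of the signalling lists, Hedgehog had 7 of 17 (41.2%), with the ligands Shh, Ihh and Dhh, the receptor Ptch1 and the co-receptor Gas1 among them. The FGF list had 11 of 30 (36.7%), with Fgf15, Fgfr1, Fgfr2, Fgfr3 and the feedback inhibitors Dusp4, Dusp6, Spry2 and Spry4. Wnt had 16 of 55 (29.1%), including 5 Frizzled receptors, Notch 7 of 27 (25.9%), and BMP and TGF-beta 7 of 36 (19.4%), none of them a receptor. These are the 5 pathways pooled above. The separate list of retinoid pathway and nuclear receptor genes had 9 of 48 (18.8%).

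Cell type markers were looked up among the intervals of any length. Broad intervals covered 6 of the 9 autosomal neural progenitor markers, Irx3, Msi1, Nkx6-1, Olig2, Pax6 and Sox2, and these 9 intervals had a median log2 fold change of 0.00064 with none called. No marker of pluripotent, neural crest, paraxial mesoderm or endothelial and blood cells had a broad interval. Pou5f1, Zfp42 and Dppa3, which define pluripotent cells, had no interval of any length, and the single interval of Nanog held 2.33 to 4.04 CPM. Some markers of the other cell types were accessible in narrower intervals. Summed over a gene's intervals, the libraries held 105 to 121 CPM at Sox2. Neural crest markers ran from 7.26 to 11.7 CPM at Sox10 up to 134 to 147 at Tfap2a. Endoderm markers ran from 1.78 to 3.69 at Afp up to 81.0 to 88.7 at Foxa1. In paraxial mesoderm, Meox1 held 4.08 to 7.37 and Tbx6 39.3 to 43.4. Of endothelium and blood, Tal1 held 65.7 to 78.8 and Kdr 65.6 to 73.8, and Cdh5 had no interval. Neuronal markers ran from 17.7 to 21.3 at Stmn2 up to 102 to 123 at Elavl4. Accessibility was therefore not limited to progenitor markers. Stmn2 was the only neuronal marker with a broad interval (20.1 ± 1.57 CPM in the control group, 19.2 ± 1.69 with Nr6a1, SD, n = 3 each) and Gata6 the only endodermal one (71.1 ± 2.14 and 68.5 ± 0.80). Nkx6-1 and Olig2 mark ventral progenitors and Pax6 and Sox2 progenitors more generally. Sox1, Nes and Hes5 had narrower intervals only, the longest of 2280, 2491 and 1189 bp in that order. The Nes interval thus lay just under the limit of 2500 bp.

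Few genes had more than 1 broad interval. Of the 990 genes, 933 had 1 broad interval, 50 had 2, 5 had 3 and 2 had 4. Gse1, which encodes a partner of a histone deacetylase complex, and Pax6, the paired-box gene that specifies neural progenitors and eye, had 4 each. The Pax6 intervals spanned 2718 to 3194 bp and held 27.3 ± 2.27, 111 ± 3.53, 51.5 ± 4.47 and 94.7 ± 6.44 CPM in mScarlet libraries, and 27.9 ± 1.05, 113 ± 6.15, 51.4 ± 2.14 and 93.4 ± 1.62 CPM in Nr6a1OE (SD, n = 3). None of these 4 passed the test. Fignl2, Lmx1b, Macrod1, Maml3 and Sfi1 had 3 each. Successive broad intervals were a median of 978 kb apart, with 73 followed by another within 20 kb.

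None of the 10 longest intervals passed the test between groups. Apart from the first and second, of 6178 and 5895 bp at the multicopy gene Sfi1, whose read assignment is uncertain, they were at Tle3, a Groucho-type corepressor (5880 bp), Sp5 (5537 bp), Lhx5, a LIM homeobox gene (5229 bp), Dusp4, which inactivates MAP kinases (5102 bp), Otx2 (4847 bp), Pcdh7, a protocadherin (4822 bp), Helt, a bHLH gene of midbrain neurons (4768 bp), and Tgif1, a repressor of retinoid and TGF-beta targets (4757 bp). Over all 10, log2 fold changes ran from 0.015 at Dusp4 to 0.13 at Otx2, with adjusted p of 0.263 to 0.935. At Tle3 the mScarlet libraries held 218, 216 and 220 CPM and the Nr6a1OE libraries 226, 227 and 222. At Sp5 they held 84.7, 79.1 and 81.2 against 85.7, 84.9 and 91.3, and at Otx2 43.1, 42.7 and 41.1 against 44.2, 45.6 and 49.1. All 3 Nr6a1OE libraries were above all 3 mScarlet libraries at each of these genes, by margins too small to pass over all intervals (adjusted p of 0.633, 0.390 and 0.381). At the rest of the 10 longest the groups overlapped. Over all tested intervals, 16.6% had groups without overlap. The promoter sequences printed above show that Tle3, Sp5 and Otx2 differ in CpG content.

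Between the groups, most broad intervals moved little, with more of them higher than lower in Nr6a1OE. At a Benjamini-Hochberg adjusted p under 0.05 over all tested intervals in edgeR's quasi-likelihood test, 26 broad intervals had higher accessibility in Nr6a1OE (called opened) and 10 lower (closed). That is 2.35% and 0.905% of 1105, beside 0.469% opened and 1.26% closed over all tested intervals, and 3.26% called beside 1.73%. Groups without overlap were found at 217 broad intervals (19.6%), beside 16.6% over all tested. The median log2 fold change was 0.033 (quartiles -0.019 and 0.092, range -0.42 to 0.58) against 0.0038 over all tested, and 720 (65.2%) were above 0 against 50.8%. The same share rose along the length classes as the plot by interval length shows, from 44.97% under 500 bp to 72.6% at 3500 bp and over.

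**Figure D3:**
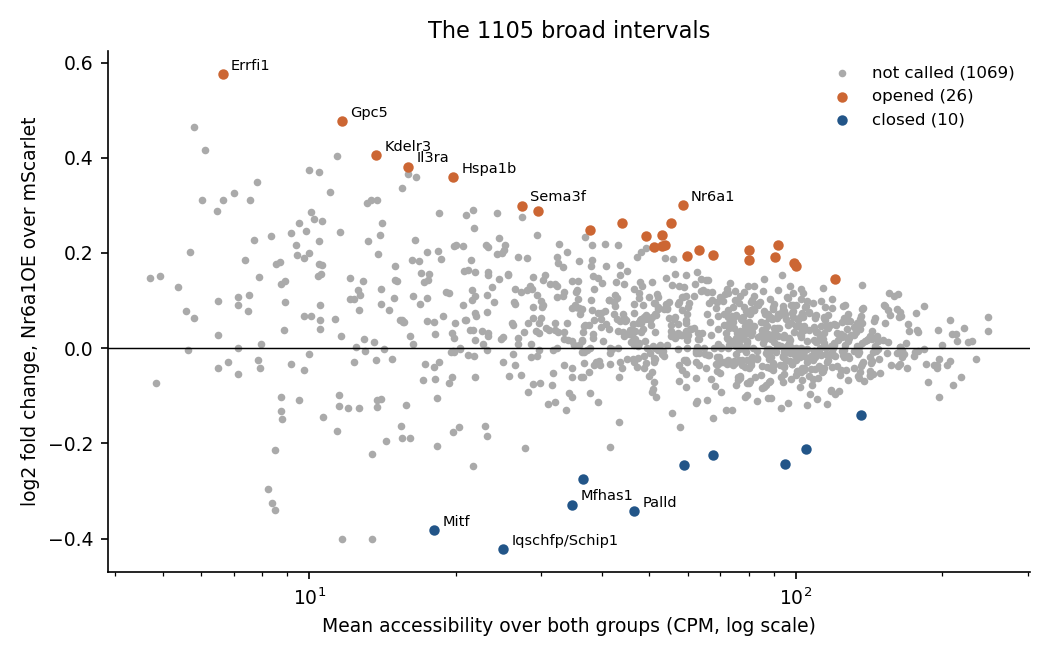
Log2 fold change of Nr6a1OE over mScarlet (y axis) against mean accessibility in CPM on a log scale (x axis) for the 1105 broad intervals. Opened intervals (26) are orange, closed intervals (10) blue and the rest grey, and the called intervals with the largest changes carry the name of the gene they lie in or nearest to.

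The size of this shift was close to the spread between libraries. The median log2 ratio of broad intervals to their mean over all libraries was -0.0065, 0.0022 and -0.040 for mScarlet 1 to 3 and 0.020, -0.0022 and 0.018 for Nr6a1OE 1 to 3, so that mScarlet 3 was lowest and mScarlet 2 lay above Nr6a1OE 2. Broad intervals took 7.56%, 7.66% and 7.44% of the fragments in the mScarlet libraries and 7.74%, 7.64% and 7.73% in the Nr6a1OE libraries. The means were 7.55 ± 0.11% and 7.70 ± 0.05% (SD, n = 3), and the same pair of libraries overlapped. Libraries held 6857763 to 8030029 fragments in intervals. Over the broad intervals, pairs within Nr6a1OE differed by 0.99 to 1.08 in chi-square per degree of freedom, near counting noise, and pairs within mScarlet by 1.13 to 1.31.

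Deeper intervals give a test more power, so calls were also counted within classes of mean accessibility. Between 50 and 100 CPM, 14 of 396 broad intervals opened (3.54%) against 15 of 5221 narrower ones (0.287%), and 3 (0.758%) against 31 (0.594%) closed. Between 20 and 50 CPM, 5 of 271 broad intervals opened (1.85%) against 0.67% of 7613, and between 10 and 20 CPM 4 of 115 (3.48%) against 0.764% of 6415. At 100 CPM and over, 2 of 263 opened and 2 closed, against 2 and 6 of 605 narrower intervals. The opened share was thus higher for broad intervals in each of these 4 classes, with counts of 5 or fewer in all but that of 50 to 100 CPM. The median fold change was above that of narrower intervals in every class, from 0.11 against 0.0094 below 10 CPM to 0.0071 against -0.023 at 100 CPM and over. The difference between the sets was not tested.

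**Figure D4:**
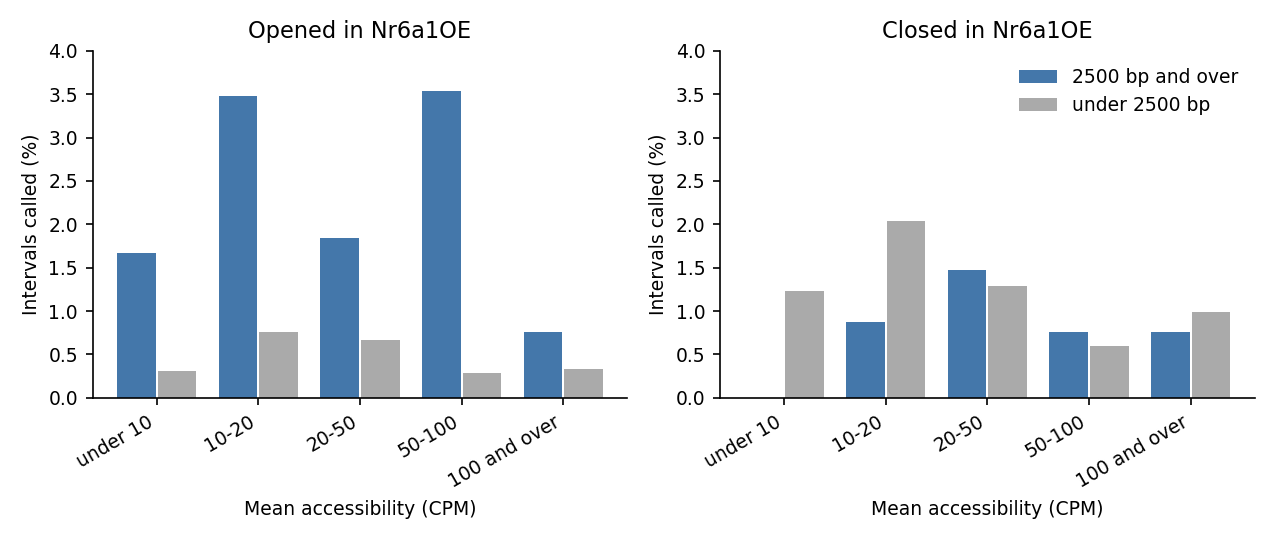
Percentage of intervals opened (left) and closed (right) in Nr6a1OE, on the y axis, by mean accessibility in CPM (x axis), for broad intervals in blue and narrower autosomal intervals in grey. The widest gap is at 50 to 100 CPM, where 3.54% of broad and 0.287% of narrower intervals opened.

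Of the opened intervals, the one in Nr6a1 itself had the smallest adjusted p. Its single broad interval lies inside the gene at chr2:38822994-38825616 (mm10), 99.6 kb from the nearer boundary, and is 1 of 8 intervals in the gene, of which the other 7 were not called. The mScarlet libraries held 49.7, 50.7 and 56.7 CPM and the Nr6a1OE libraries 66.5, 61.6 and 65.9 CPM. All Nr6a1OE libraries were above all mScarlet libraries. The log2 fold change was 0.30 (SE 0.059, adjusted p = 0.000122). This is the gene carried by the virus, and no exon positions were used to place the interval within it.
Col2a1, which encodes the main collagen of cartilage and is also made in the notochord, was the other opened interval called in every set with 1 library left out. Its 3676 bp reach an outer boundary of the gene (chr15:98001314-98004989), and went from 81.9, 83.6 and 89.3 CPM to 94.0, 102 and 101 CPM, with no overlap. The log2 fold change was 0.22 (SE 0.048, adjusted p = 0.00124).

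The largest opened changes were at weakly accessible intervals. Between genes 27.4 kb from Errfi1, an inhibitor of EGF receptor signalling, the mScarlet libraries held 4.93, 6.56 and 4.62 CPM and the Nr6a1OE libraries 8.38, 6.92 and 8.45, a log2 fold change of 0.58 (SE 0.172, adjusted p = 0.0496). Between genes 41.7 kb from Gpc5, a heparan sulfate proteoglycan, the values were 9.45, 10.3 and 9.49 against 13.9, 12.9 and 13.9 CPM (0.48, SE 0.130, adjusted p = 0.0220). The groups did not overlap at either, and the Errfi1 margin was narrow, between mScarlet 2 and Nr6a1OE 2. Next in size were intervals inside Kdelr3, a receptor that returns proteins to the endoplasmic reticulum (11.8 ± 1.65 to 15.6 ± 1.67 CPM, log2 fold change 0.41), inside Il3ra, the interleukin 3 receptor (13.9 ± 0.57 to 18.1 ± 2.66, 0.38), and 5.8 kb from Hspa1b, a heat shock chaperone (17.3 ± 0.80 to 22.2 ± 1.198, 0.36). Sema3f, a secreted axon guidance cue (24.6 ± 3.19 to 30.2 ± 3.57, 0.30), and Tbx4, a T-box gene of hindlimb and lung (26.7 ± 1.24 to 32.5 ± 2.33, 0.29), were also among them, all with SD over n = 3. The adjusted p of these 5 ran from 0.0271 to 0.0458.

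Of 205 broad intervals within 1 kb of a gene of any list, cell type markers included, 8 opened (3.90%) and none closed, against 18 opened and 10 closed of the 900 others, with medians of 0.036 and 0.032. Among patterning genes, Pax7, Hoxc6 and Hoxb9 opened. Of the 6 sets with 1 library left out, Pax7 stayed called in 4, Hoxb9 in 2 and Hoxc6 in 1. The Pax7 interval (chr4:139831295-139834312) contains the gene's start and went from 47.9, 54.9 and 48.7 CPM to 56.1, 61.9 and 63.0, a log2 fold change of 0.26 (SE 0.060, adjusted p = 0.00261). Its groups came close without overlap, at mScarlet 2 and Nr6a1OE 1. Of 41 broad intervals at neural tube homeobox genes it was the only one called, and their median log2 fold change was 0.034. The Hoxc6 interval (chr15:102996569-103000915, 4347 bp) went from 36.4, 33.9 and 33.2 CPM to 38.5, 40.7 and 43.5 (0.25, SE 0.073, adjusted p = 0.0403), without overlap. At Hoxb9 (chr11:96269936-96272931) the values were 52.0, 46.9 and 43.3 against 50.6, 57.4 and 56.4 CPM (0.21, SE 0.063, adjusted p = 0.0437), and mScarlet 1 lay above Nr6a1OE 1. Hox genes had 13 broad intervals in all, of which 2 were called, 12 were higher in Nr6a1OE, and the lowest was at Hoxd11 (-0.08, adjusted p = 0.755). Their median was 0.10, made up of 0.12 for the 6 HoxB intervals, which lie on chromosome 11, and 0.053 for the 7 of the other clusters. Chromosome 11 as a whole was higher in Nr6a1OE, by a median of 0.058 over all its intervals.
Hox cofactors (Meis1 and Pknox2, 3 intervals), Sox genes (7), POU genes (8), Zic and Gli genes (6) and proneural genes (3) had none called. Their medians were 0.023, -0.0064, -0.019, 0.085 and -0.018. The nearest to a call was Gli1, a transcriptional effector of Hedgehog signalling, from 149 ± 6.13 to 162 ± 5.23 CPM (0.12, adjusted p = 0.0839). Of 18 intervals at forkhead and T-box genes, only the Tbx4 interval at chr11:85888261-85891487 was called. That call was kept in 1 of the 6 sets with 1 library left out. Another broad interval at Tbx4 was level (-0.0052, adjusted p = 0.991). The one at T, the mesoderm gene Brachyury, was not called (0.36, adjusted p = 0.0565).

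Signalling genes gave single calls. Fgf15, an FGF ligand of the developing neural tube, went from 63.9, 62.8 and 62.1 CPM to 75.9, 72.1 and 68.6 without overlap (0.20, SE 0.055, adjusted p = 0.0285), the only called interval of 11 in its pathway. Inside Ski, a corepressor of TGF-beta signalling, values were 41.3, 50.0 and 44.8 against 51.0, 49.6 and 58.7 CPM (0.23, SE 0.064, adjusted p = 0.0210), and mScarlet 2 lay above Nr6a1OE 2. It was 1 of 7 in the BMP and TGF-beta list. Of the 6 sets with 1 library left out, the Fgf15 call was kept in 1 and the Ski call in 3. Notch (10 intervals), Hedgehog (8) and the Wnt list (17) had none called, with medians of 0.037, 0.052 and 0.060. Notum, a secreted enzyme that inactivates Wnt ligands and was not in that list, opened with overlapping groups (55.7 ± 1.79 to 63.7 ± 6.13 CPM, 0.19, adjusted p = 0.0495).
Of 13 intervals at temporal genes, the one at the start of Hmga1, a chromatin protein of early progenitors whose promoter is printed above, opened from 115, 109 and 118 CPM to 124, 122 and 133 (0.15, SE 0.042, adjusted p = 0.0366). All Nr6a1OE libraries were above all mScarlet libraries. In the retinoid and nuclear receptor list Nr6a1 was the only call of 10, and the lists of chromatin regulators (15), cell cycle genes (9) and RNA-binding genes (4) had none, with medians of 0.013, 0.013 and 0.016.

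The other 9 opened intervals changed by 0.17 to 0.24. They lie at starts or boundaries of Efnb3, an ephrin ligand, overlapping Wrap53, Clic1, an intracellular chloride channel, Rtn4rl1, a Nogo receptor relative, Csrnp1, Tll1, a protease that activates BMPs, Cxxc5, a CpG-binding modulator of Wnt signalling, Mat2b, a subunit of methionine adenosyltransferase, Traf4, an adaptor protein, and Pfn1, which binds actin. Csrnp1, with a CpG-poor start, went from 71.7, 76.8 and 74.7 CPM to 83.8, 83.1 and 89.96 (0.21, SE 0.051, adjusted p = 0.00704). Its groups did not overlap.

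Of the 10 closed intervals, 3 contained a coding start site in the table used here and 7 did not. The largest fall was inside Schip1 and the overlapping readthrough gene Iqschfp (chr3:68269425-68272254), where the encoded protein binds the tumour suppressor schwannomin: 30.5, 27.8 and 27.7 CPM in mScarlet against 20.9, 22.7 and 20.7 in Nr6a1OE, a log2 fold change of -0.42 (SE 0.090, adjusted p = 0.000623). Inside Palld, which organises actin, the values fell from 52.8, 51.1 and 52.3 to 38.8, 40.8 and 43.5 CPM (-0.34, SE 0.066, adjusted p = 8.3e-05). At Bhlhe40, a bHLH repressor of the clock and of differentiation, they fell from 101, 107 and 100 to 94.2, 83.6 and 83.4 CPM (-0.24, SE 0.047, adjusted p = 9.8e-05). Groups were apart at all 3, and Palld had the smallest adjusted p of all broad intervals. Between genes 62.4 kb from Mef2c, a muscle and neuronal transcription factor, an interval of 3518 bp that contains the start of the noncoding gene C130071C03Rik went from 113, 117 and 109 CPM to 100, 93.5 and 97.9 (-0.21, SE 0.045, adjusted p = 0.000595). These 4 were the closed intervals called in every set with 1 library left out.

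The remaining 6 closed intervals included 3 at start sites. Cpt1a, the gate enzyme of fatty acid import into mitochondria, whose promoter is printed above with 14 CpG, fell from 60.9, 66.0 and 64.4 CPM to 55.4, 51.4 and 54.5 (-0.25, SE 0.059, adjusted p = 0.00450). Myo10, a motor of filopodia, fell from 73.0 ± 2.17 to 62.4 ± 1.57 CPM (-0.23, adjusted p = 0.00590), and Mxi1, an antagonist of Myc, from 143 ± 6.10 to 130 ± 4.42 CPM (-0.14, adjusted p = 0.0306). Groups were apart at each of these starts. Away from starts, an interval 91.1 kb from Mitf, the regulator of pigment cells, fell from 22.2, 17.3 and 21.7 CPM to 14.9, 15.8 and 16.4 (-0.38, SE 0.105, adjusted p = 0.0229), with mScarlet 2 close to the Nr6a1OE libraries. The call near Mitf was kept in 1 of the 6 sets with 1 library left out. It was lost with each chromosome's median removed from every library (adjusted p = 0.0563). Mfhas1, a leucine-rich repeat protein of inflammatory signalling (38.6 ± 2.70 to 30.7 ± 4.00 CPM, -0.33), and Plpp3, which breaks down lysophosphatidic acid (40.0 ± 2.39 to 33.1 ± 0.83, -0.27), completed the set, with adjusted p of 0.00265 and 0.0191. By position, 8 opened and 3 closed at start sites, 9 and 1 at gene boundaries, 6 and 4 inside genes, and 3 and 2 between genes.

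**Figure D5:**
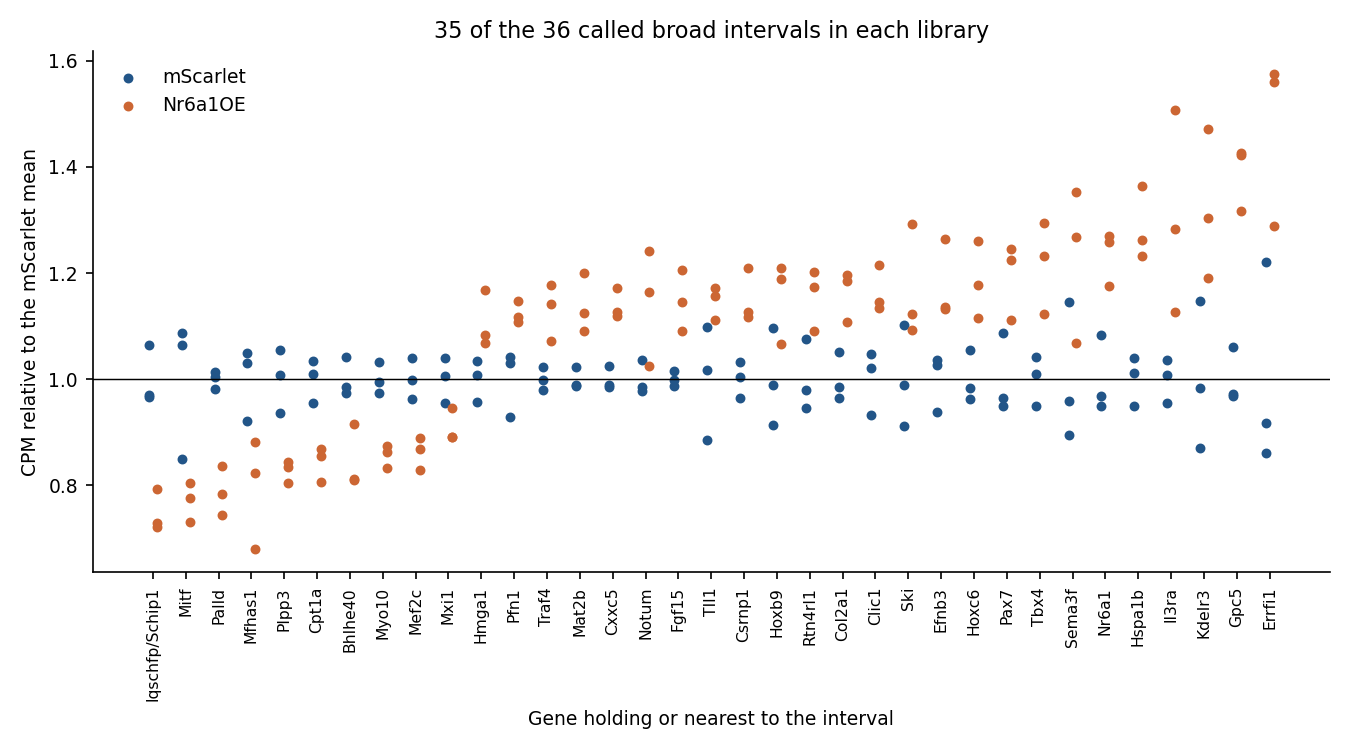
Accessibility of each called broad interval in each library, as CPM divided by the mean of the mScarlet libraries (y axis), for 35 of the 36 called intervals ordered by fold change and named by the gene they lie in or nearest to (x axis). Each point is 1 library, mScarlet in blue and Nr6a1OE in orange. The groups overlap at Notum, Hoxb9, Ski and Sema3f and are apart at the others drawn.

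Chromosome 11 held a large share of the opened intervals. Of its 100 broad intervals 8 opened, none closed and 90 were above 0, with a median log2 fold change of 0.095. The opened ones were at Pfn1, Traf4, Mat2b, Notum, Hoxb9, Rtn4rl1, Efnb3 and Tbx4. The 3976 narrower intervals of the chromosome were also shifted, with a median of 0.056, 37 opened and 28 closed. Over all 4076 intervals of the chromosome 1.10% opened and 0.687% closed. The median log2 ratio of the narrower intervals to their mean over all libraries was -0.025, -0.033 and -0.028 for the mScarlet libraries and 0.017, 0.028 and 0.024 for the Nr6a1OE libraries. For the broad intervals it was -0.037, -0.034 and -0.064 for mScarlet and 0.042, 0.035 and 0.052 for Nr6a1OE. The shift was thus present in broad and narrower intervals and in every library of each group. Where along the chromosome it lay was not examined. With each chromosome's median removed from every library, none of the 8 was called (adjusted p of 0.102 to 0.243), and 16 opened and 9 closed broad intervals were called over all chromosomes, 24 of them among the 36, beside 0.424% opened, 1.21% closed and 1.64% called over all tested intervals. Over chromosomes other than 6 and 11, 18 of 942 opened and 8 closed, with a median of 0.027. Chromosome 6, which holds the closed intervals at Bhlhe40 and near Mitf, was lower in Nr6a1OE. Over all its 3177 intervals the median log2 fold change was -0.031, with 0.063% opened and 1.95% closed. Over its 63 broad intervals the median was 0.0054, with 0 opened and 2 closed. With chromosome medians removed, the Bhlhe40 interval stayed called (adjusted p = 0.00211) and that near Mitf did not.

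The calls depended on the very small spread between these libraries. DESeq2 called 0 broad intervals, although an unadjusted p under 0.05 was reached by 52 that were higher in Nr6a1OE and 17 that were lower, and edgeR with an assumed variation of 10% between samples also called 0 (15 and 7 by unadjusted p), whereas the fitted common variation was 1.47%. Over all tested intervals DESeq2 called 0.00581% opened and 0.188% closed (0.194% in all), and the assumed variation of 10% 0.0368% and 0.397% (0.434% in all). Leaving out 1 library at a time left 7 to 25 opened and 7 to 10 closed. The 7 opened came without mScarlet 1 (9 closed) or without Nr6a1OE 3 (8 closed), where closed calls outnumbered opened ones. Next were 11 opened without mScarlet 3 and 16 without Nr6a1OE 1.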

How the data were processed

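The authors deposited raw counts of fragments in a consensus set of 52223 intervals, with 1 column for each of 6 libraries, made with featureCounts 2.0.1 per the file headers. Read pairs were counted, and a fragment counted for every interval that held at least 0.2 of it, so neighbouring intervals can share fragments. The submitters' processing notes name mm10. For the aligner, peak caller, duplicate handling and merging of peaks nothing is given in the sources used here. Since interval length comes from that calling, neither the limit of 2500 bp nor the set is independent of these libraries.

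From these counts, filterByExpr removed 586 intervals, leaving 51637 to be tested. The quasi-likelihood test of edgeR 4.0.16 (glmQLFit, then glmQLFTest, in R 4.3.3) with TMM factors compared 3 Nr6a1OE with 3 mScarlet samples, with no covariate, Benjamini-Hochberg adjustment over all tested intervals and a threshold of 0.05. CPM values use TMM-scaled totals. A standard error is the fold change over the square root of its F statistic. Gene boundaries and promoter windows (250 bases before to 50 after a start) came from RefSeq GRCm38.p6, which shares its coordinates with mm10. The table holds 21896 coding genes, of which 17491 have a window, and no windows of chromosome 18 were used. Of 633 list genes 631 were found. Named intervals are the 10 longest, the 5 densest, the called ones with the largest changes, those in Nr6a1, the longest and the most changed per list, the genes with the most intervals and those next to the limit; a few that these rules name are not reported here. The members, lists and rules were chosen with earlier results of these data known. A seeded simulation tested the code.

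Pairs of libraries within a group differed beyond counting noise over intervals with 10 or more fragments on average (chi-square test, highest p of 1.5e-13), and each library was counted as 1 replicate. Nr6a1OE 1 and 3 did not differ beyond counting noise over intervals with 100 or more fragments (chi-square per degree of freedom 0.999) or over the broad intervals (0.987), nor did Nr6a1OE 1 and 2 over the broad intervals (1.03), so their independence is not shown, and a fit with Nr6a1OE 1 and 3 summed is among the alternatives. Alternatives were DESeq2 1.42.0, other scalings and filters, assumed variation of 10% and 20%, a fold threshold of 1.2, summed libraries, libraries left out, and limits of 2000 and 3000 bp.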

Additional observations from a re-analysis of the deposited data

How the results depend on the processing

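Relative log expression factors and no filter gave 26 opened and 10 closed broad intervals, loess offsets 31 and 10, and Nr6a1OE 1 and 3 summed 23 and 10. Replicate numbers did not pair the samples (correlations of same-numbered deviations -0.0063 to 0.0044), and the replicate block gave 23 opened and 10 closed. With chromosome medians removed 16 opened. DESeq2 called 0 opened and 0 closed broad intervals (52 and 17 by unadjusted p under 0.05) and 3 and 97 over all intervals. In edgeR, a fold threshold of 1.2 gave 0 and 0 (13 and 150 over all; 6 and 5 broad by unadjusted p), assumed variation of 10% 0 and 0 (19 and 205; 15 and 7), and of 20% 0 and 0 (0 and 29; 0 and 0). Leaving out 1 library gave 7 to 25 opened and 7 to 10 closed broad intervals, 98 to 190 opened and 395 to 544 closed over all. A limit of 2000 bp gave 49 opened and 31 closed of 3185, and a limit of 3000 bp 10 and 4 of 436. The median fold change of broad intervals was 0.022 to 0.043 throughout.

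The start or boundary share was 55.9% at 2000 bp, 71.3% at 3000 bp and 68.2% with a distance of 1 kb in place of overlap, when all autosomal intervals gave 29.3%. The CpG-rich share was 50.2% at a ratio of 0.75, against 53.1% in narrower intervals. The Nr6a1OE excess in fragment share was 0.15 percentage points, 0.26 at 2000 bp, 0.0902 at 3000 bp, and 0.0941 to 0.204 with 1 library left out. Of the 36 calls, 4 closed and 2 opened kept their threshold in all 6 sets with 1 library left out. Signal near 5 CPM limits what can be seen at the sparsest intervals.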

Other observations

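Some broad intervals held miRNA hairpins. Of 919 autosomal hairpins in RefSeq, 141 lay in any interval and 6 in a broad one, among them Mir92b, Mir1199, Mir7687, Mir7653 and Mir1894, and none of these intervals was called. The Mir92b interval, which is 3003 bp long and also overlaps Thbs3, had a log2 fold change of 0.014.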
